A study of Arabidopsis thaliana with 12 samples.

Results

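H3K4me2 and H3K4me3, the di- and trimethylated forms of lysine 4 of histone H3, were compared in wild-type rosette leaves of Arabidopsis thaliana. The comparison takes every deposited peak of the wild-type H3K4me2 library and every deposited peak of the wild-type H3K4me3 library, 35081 of the 80922 peaks in the 5 peak lists of the series, from 2 of its 12 samples. The plants were of the accession Columbia (Col-0), 4 weeks old, and kept in days of 16 h (22 °C) and nights of 8 h (20 °C). The series as a whole also profiled atx3/4/5 and sdg2 mutants, which lack putative or known H3K4 methyltransferases. Chromatin immunoprecipitation sequencing (ChIP-seq) was done with 1 library per genotype and antibody. RNA sequencing was done with 2 libraries each of atx3/4/5 and wild type, which the authors combined into 1 FPKM per gene and genotype (fragments scaled to transcript length and to library size).

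In plants H3K4me3 is known to sit at the beginnings of transcribed genes, where it is set by SET-domain methyltransferases of the Trithorax family. H3K4me2 can be its precursor or its demethylation product, and it is also known from gene bodies and from genes with little transcription. A peak here is an interval that the authors' peak caller found enriched over input DNA. A score of 50, about the lowest in either list, is read as a p-value of 1e-05, and higher scores stand for smaller ones.

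With 1 library per mark there is no replicate spread, so no difference below was tested, and intervals are exact (Clopper-Pearson) 95% intervals that cover counting error only. The 2 lists come from different antibodies and from libraries of unknown depth, so a peak missing from a list was not detected there and need not be absent. In bulk leaf tissue, marks on the same molecule and marks in different cells cannot be told apart, nor can fewer cells of a type and less RNA per cell. As a check of the tissue, the 29 photosynthesis genes looked up had a median wild-type FPKM of 5277. The 7 root hair and root tip markers ranged from 0 to 0.131, and 5 of them were listed at 0.

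The H3K4me2 list was longer and its peaks scored lower. It held 20585 peaks over 26.2 Mb, against 14496 peaks over 17.0 Mb for H3K4me3. The median score was 197 for H3K4me2 and 769 for H3K4me3. When windows of 1 Mb were ranked by their number of expressed genes into 5 groups, the summed H3K4me2 peaks per H3K4me3 peak were 1.38, 1.42, 1.41, 1.46 and 1.401 from the fewest to the most expressed genes.

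Most H3K4me3 peaks lay on H3K4me2, while a large part of H3K4me2 lay elsewhere. Of the H3K4me2 peaks 12522 (60.8%, interval 60.2 to 61.5) overlapped an H3K4me3 peak by at least 1 bp. Of the H3K4me3 peaks 11764 (81.2%, interval 80.5 to 81.8) overlapped an H3K4me2 peak. In bases, the 10.6 Mb under both marks were 40.6% of H3K4me2 and 62.4% of H3K4me3. The shares were alike on the 5 chromosomes, from 60.03% to 62.5% for H3K4me2 and from 80.2% to 82.4% for H3K4me3. They depend on how many weak peaks a list holds. With the 14496 highest-scoring peaks of each list, 70.2% of H3K4me2 and 67.7% of H3K4me3 peaks overlapped, so the order of the marks was reversed.

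Overlap went with the score of H3K4me2 more than with that of H3K4me3. In the lowest-scoring quintile of H3K4me2 peaks 35.2% (interval 33.7 to 36.7) overlapped H3K4me3, and in the highest 82.5% (81.3 to 83.7). In the lowest quintile of H3K4me3 peaks 76.2% (74.6 to 77.7) overlapped H3K4me2, and in the highest 86.5% (85.3 to 87.8). The 8063 H3K4me2 peaks with no H3K4me3 had a median score of 120 and the 12522 overlapping ones 274. The 2732 H3K4me3 peaks with no H3K4me2 had a median score of 611 and the 11764 overlapping ones 814.

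In atx3/4/5, the same count gave 62.0% of 16650 H3K4me2 peaks, against 60.8% in wild type. It gave 71.2% of 13622 H3K4me3 peaks in atx3/4/5, against 81.2% in wild type. The H3K4me2 list of atx3/4/5 was also smaller, at 17.3 Mb against 26.2 Mb in wild type. The part of list size in these shares was not tested.

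The median widths of the marks were close, but H3K4me2 varied more. The median was 1122 bp for H3K4me2 (quartiles 801 and 1572) and 1080 bp for H3K4me3 (quartiles 918 and 1329). Widths above 2000 bp were found for 11.8% of H3K4me2 peaks and 4.90% of H3K4me3 peaks, and above 3000 bp for 442 and 42 peaks. Peaks alone were narrower than peaks on the other mark. For H3K4me2 the medians were 930 bp alone and 1266 bp on H3K4me3, and for H3K4me3 they were 987 bp alone and 1105 bp on H3K4me2. The difference of the medians over all peaks, H3K4me2 minus H3K4me3, was 42 bp, and it was 225 bp with equal numbers of peaks. The median width was 755 bp in the lowest-scoring quintile of H3K4me2 and 1541 bp in the highest.

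**Figure D1:**
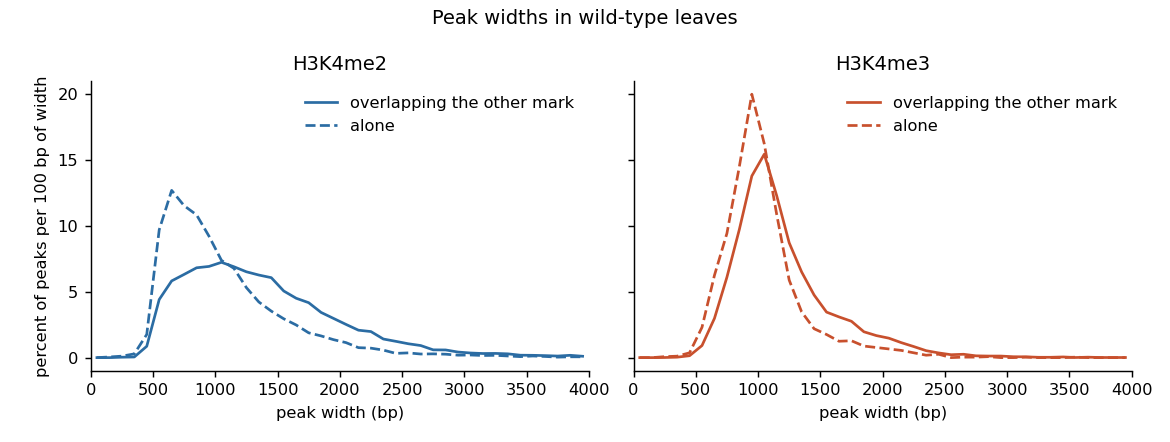
Peak widths in wild-type leaves: percent of peaks in each 100 bp of width, H3K4me2 at left and H3K4me3 at right, for peaks that overlap the other mark (solid) and peaks alone (dashed). Widths beyond the axis are not drawn. The H3K4me2 curves are broad and the H3K4me3 curves are gathered around a median of 1080 bp.

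Where the marks met, they were shifted against each other. In 10863 pairs, 1 peak of each mark overlapped 1 peak of the other and no more. Of these, 7702 pairs (70.9%, interval 70.0 to 71.8) were offset, with each mark reaching past the other at 1 side. H3K4me2 contained H3K4me3 in 957 pairs (8.81%), and H3K4me3 contained H3K4me2 in 2204 (20.3%). The median shared stretch was 841 bp, which was 70.9% of the H3K4me2 peak and 83.0% of the H3K4me3 peak. The centres lay a median of 304 bp apart, with an upper quartile of 587 bp. In offset pairs H3K4me2 reached a median of 526 bp past the end of H3K4me3, and H3K4me3 a median of 207 bp past the end of H3K4me2. Across pairs, Spearman's rho was 0.34 between the widths of the marks and 0.014 between their scores (n = 10863 pairs, which share 2 libraries). An H3K4me3 peak seldom carried several H3K4me2 peaks: 811 of the overlapping ones (6.89%) did, while 68 H3K4me2 peaks (0.543%) carried several H3K4me3 peaks.

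Nearly all peaks of both marks touched a gene locus, and H3K4me3 reached across locus ends far more often. No locus of the authors' deposited gene table lay under 230 H3K4me2 peaks (1.12%) and 139 H3K4me3 peaks (0.959%). H3K4me2 had 94.9% of its bases within loci and H3K4me3 85.2%. Peaks wholly within a locus made up 53.6% of H3K4me2 and 7.84% of H3K4me3. Peaks that touched at least 2 separate loci made up 2.40% of H3K4me2 and 13.2% of H3K4me3.

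The strand of genes was not used here, so positions are given from locus ends without naming a start or a stop. Among loci of at least 1000 bp that no other gene shares, 13040 carried H3K4me2 and 11806 carried H3K4me3. An end was taken as the outermost base of the locus, and interior means that neither end was under a peak, however near the peak came. H3K4me2 lay in the interior in 6011 of them (46.1%, interval 45.2 to 47.0) and over 1 end in 6462 (49.6%). H3K4me3 lay in the interior in 662 (5.61%, interval 5.20 to 6.04) and over 1 end in 10245 (86.8%). Genes with H3K4me2 in the interior had a median wild-type FPKM of 8.84, and those with it over 1 end 4.14. Genes without H3K4me3 had H3K4me2 over 1 end in 54.1% of 2938 cases and in the interior in 37.2%. With both marks on the gene, those shares of H3K4me2 were 48.2% and 48.7% of 10102 genes.

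A count that uses no orientation shows the same layout. In loci of 3000 bp or more that carry the mark, the outermost 10% of the locus, averaged over its ends, was under H3K4me2 in 35.1% of genes and under H3K4me3 in 47.7%. The middle was under H3K4me2 in 52.0% and under H3K4me3 in 4.18%. In loci of 1000 to under 2000 bp the middle was under H3K4me2 in 82.4% and under H3K4me3 in 65.7%.

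For 10152 genes with exactly 1 H3K4me3 peak, over exactly 1 end, that end was taken as the origin. H3K4me3 at the origin is then given by the choice of genes, while H3K4me2 was not used in it. The H3K4me3 peak reached a median of 877 bp into the locus and 183 bp out of it. H3K4me2 overlapped this peak in 8528 genes (84.0%, interval 83.3 to 84.7). In 6793 of these (79.7%, interval 78.8 to 80.5) H3K4me2 went past the inner edge of H3K4me3, by a median of 573 bp (quartiles 260.0 and 995). In 1631 (19.1%, interval 18.3 to 20.0) it went past the outer edge, by a median of 262 bp. It went past the inner edge alone in 5589 genes and past the outer edge alone in 427. Over all these genes H3K4me2 went past H3K4me3 into the locus more often than out of it. The 60 genes listed at an FPKM of 0 went the other way: of the 47 with H3K4me2 on the peak, 40.4% (interval 26.4 to 55.7) had it past the inner edge and 72.3% (57.4 to 84.4) past the outer edge. In these 60 genes the H3K4me3 peak reached a median of 60.5 bp into the locus and 1016.5 bp out of it.

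The same direction was found away from neighbouring genes. Among genes with no other locus within 1000 bp, 71.6% of 1400 had H3K4me2 past the inner edge and 10.6% past the outer edge. The median outward reach there was 39 bp.

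The layout followed the length of the gene. Along the locus, coverage was read at the middle base of each of 20 bins, so a bin of 5% stands for 1 point. In loci of 3000 bp or more, H3K4me2 covered 53.1% of genes in the first 5% of the locus and 52.3% at the middle. Its highest share was 73.1%, in the bin that ends 20% of the way in. H3K4me3 covered 99.0% of these genes in the first 5% and 3.06% at the middle. In loci of 1000 to under 2000 bp both marks spread over the middle, H3K4me2 in 64.2% and H3K4me3 in 61.7% of genes. In the last 5% of loci of 3000 bp or more, H3K4me2 covered 2.63% of genes, while the near lack of H3K4me3 there is given by the choice of genes with 1 H3K4me3 peak over 1 end. The inward reach of H3K4me2 past H3K4me3 was a median of 361 bp in loci of 1000 to under 2000 bp, 645 bp in those of 2000 to under 3000 bp and 772 bp in longer ones.

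**Figure D2:**
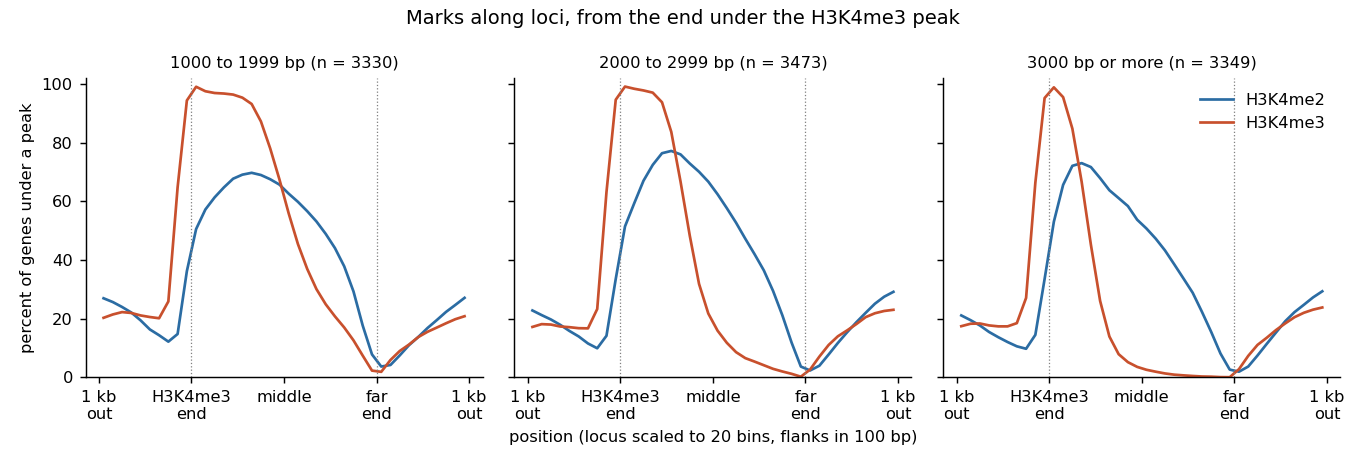
Percent of genes under an H3K4me2 or an H3K4me3 peak along the locus, in 3 groups of locus length. Loci are scaled to 20 bins and flanks run 1 kb in steps of 100 bp; the origin at left is the end under the H3K4me3 peak, so the H3K4me3 maximum there is given by the choice of genes. H3K4me2 is highest inside the locus, past the H3K4me3 maximum.

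The length under H3K4me2 was greater in each longer group of genes, while that under H3K4me3 differed little beyond the third group. Among protein-coding genes with a locus of their own, ranked into 10 groups of length, the median length under H3K4me2 was 1119 bp in the fourth group (1345 to 1626 bp) and 2373 bp in the longest (4042 bp and over). Under H3K4me3 it was 902 bp in the fourth group and 872 bp in the longest, and it stayed between 872 and 927.5 bp in all groups above the second. Across genes that carry the mark, Spearman's rho with locus length was 0.59 for H3K4me2 (n = 14104 genes) and 0.11 for H3K4me3 (n = 12571 genes). Longer genes also had more H3K4me2 peaks. Of own-locus genes of 5000 bp or more, 779 of 1113 with H3K4me2 had at least 2 such peaks (70.0%, interval 67.2 to 72.7), and 61 of 993 with H3K4me3 had at least 2 (6.14%, interval 4.73 to 7.82). Below 2000 bp the shares were 3.09% for H3K4me2 and 3.53% for H3K4me3.

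**Figure D3:**
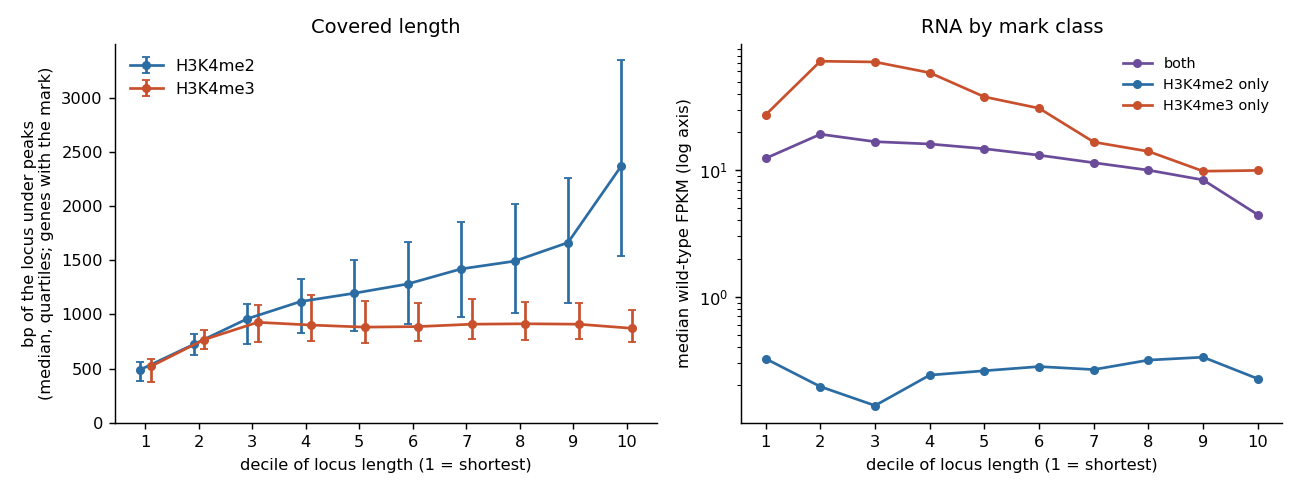
Protein-coding genes with their own locus, in deciles of locus length. Left, bp of the locus under each mark among genes that carry it (points, medians; bars, quartiles); right, median wild-type FPKM of genes with both marks, with H3K4me2 only and with H3K4me3 only, on a log axis. The H3K4me2 length climbs to 2373 bp and the H3K4me3 length stays near 900 bp from the third decile; at every length genes with H3K4me3 only have the highest median FPKM.

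Overlap of a locus and a peak by 1 bp or more was counted as the gene carrying the mark. Of 33278 nuclear genes in the authors' deposited table, 54.6% carried H3K4me2 and 50.2% carried H3K4me3. Both marks were found on 14178 (42.6%), H3K4me2 only on 4002 (12.0%), H3K4me3 only on 2514 (7.55%) and neither on 12584 (37.8%). These classes did not use RNA.

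The classes differed widely in RNA. Median wild-type FPKM in the authors' deposited table was 8.99 for genes with both marks (quartiles 2.81 and 26.2) and 0.219 for genes with H3K4me2 only (quartiles 0 and 1.56). It was 24.1 for genes with H3K4me3 only (quartiles 5.95 and 83.4) and 0 for genes with neither. An FPKM of at least 1 was found in 51.6% of all nuclear genes. It was found in 88.2% of genes with both marks (interval 87.7 to 88.7), 30.7% with H3K4me2 only (29.3 to 32.1), 85.7% with H3K4me3 only (84.3 to 87.1) and 10.3% with neither (9.77 to 10.8). An FPKM of 100 or more was found in 6.95% of genes with both marks, 0.825% with H3K4me2 only, 22.2% with H3K4me3 only and 0.437% with neither. So among all nuclear genes the share expressed was close in both classes with H3K4me3. Among protein-coding genes with a locus of their own the order was reversed. The share there was 91.8% with both marks (interval 91.3 to 92.4) and 94.7% with H3K4me3 only (93.6 to 95.6). It was 32.0% with H3K4me2 only and 16.7% with neither. Very abundant RNA was more frequent with H3K4me3 only in both sets, at 26.2% against 7.22% with both marks among these protein-coding genes.

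The same 4 classes differed in length. The median locus was 2804.5 bp for genes with both marks, 1797.5 bp with H3K4me2 only, 1665.5 bp with H3K4me3 only and 1221 bp with neither. With equal numbers of peaks the classes with 1 mark changed places, at 1838 bp for H3K4me2 only and 1997 bp for H3K4me3 only. The order in RNA was the same within groups of length. In 10 of 10 length groups of protein-coding genes the median FPKM of genes with H3K4me3 only was above that of genes with both marks. In the second group (652 to 1013 bp) these medians were 72.3 and 19.2, and in the longest 9.94 and 4.44. The median FPKM of genes with H3K4me2 only lay between 0.139 and 0.334 in all 10 groups.

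Seen from the RNA, the marks behaved differently along the range of expression. Among protein-coding genes with their own locus, H3K4me2 was most frequent in the middle. It was found in 19.4% of 5206 genes listed at 0, 57.2% of 3915 genes above 0 and under 1, and 81.0% of 4086 from 1 to under 5. It was found in 82.9% of 4834 genes from 5 to under 20, 76.2% of 3600 from 20 to under 100 and 58.4% of 1363 at 100 or more. Its interval at 100 or more, 55.7 to 61.0, lay below that at 5 to under 20, 81.8 to 83.9. H3K4me3 was more frequent at each step. From genes listed at 0 to those at 100 or more it was found in 1.998%, 22.1%, 67.8%, 87.0%, 92.9% and 94.1%. H3K4me3 without H3K4me2 was found on 0.903% of genes listed at 0 and on 38.0% of genes at 100 or more.

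**Figure D4:**
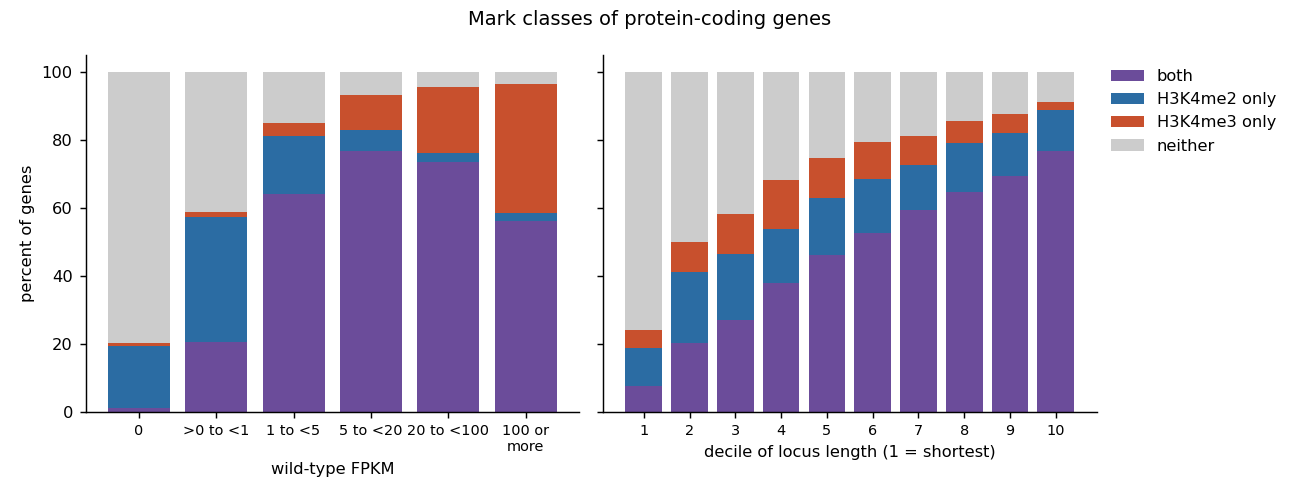
Share of protein-coding genes with their own locus in each mark class, by wild-type FPKM (left) and by decile of locus length (right). The class with H3K4me3 only takes 38.0% of genes at an FPKM of 100 or more, and the class with both marks takes 76.8% of the longest genes.

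The drop of H3K4me2 in abundant genes was seen within groups of length, and was largest in short genes. Under 1500 bp, H3K4me2 was found in 66.8% of genes from 5 to under 20 FPKM (interval 63.7 to 69.8) and 44.4% at 100 or more (40.4 to 48.4). From 1500 to under 3000 bp the shares were 83.6% (82.0 to 85.0) and 67.1% (63.4 to 70.7). At 3000 bp or more they were 92.0% (90.6 to 93.4) and 88.5% (80.4 to 94.1), whose intervals overlap.

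The score of the best peak on a gene followed FPKM in opposite ways above 5. The median H3K4me2 score was 151 in genes listed at 0, 297 above 0 and under 1, and 313 from 1 to under 5. It was 271 from 5 to under 20, 218 from 20 to under 100 and 176 at 100 or more. The median H3K4me3 score was 651, 333, 641, 842, 1060 and 1337 in the same groups. Among genes with an H3K4me3 peak over 1 end, H3K4me2 covered 77.9% of the bases of that peak above 0 and under 1 FPKM, 64.4% from 5 to under 20 and 48.7% at 100 or more, and 59.5% in genes listed at 0. The length of locus under H3K4me2 hardly went with FPKM across the genes that carry it (rho 0.043, n = 14104 genes), and that under H3K4me3 did more (rho 0.32, n = 12571 genes). The 104 genes listed at 0 that carried H3K4me3 had little of their locus under it, with quartiles of 37.5 and 178 bp, against 506 and 811 bp in genes above 0 and under 1. Each of these relations is a description across genes of the same libraries.

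Named genes show the classes. The 3 protein-coding genes with the highest FPKM in a class and a locus of their own are given first. RBCS1A (AT1G67090; chromosome 1, 25048158 to 25049424), a small subunit of the carbon-fixing enzyme Rubisco, had an FPKM of 16497, H3K4me3 over all 1267 bp of its locus and no H3K4me2 peak. LHCB5 (AT4G10340), an antenna protein of photosystem II, and LHCA1 (AT3G54890), an antenna protein of photosystem I, were of the same kind, with FPKM values of 9889 and 9250 and 100% of the locus under H3K4me3. Their H3K4me3 peaks had a score of 3100 in each of the 3 genes. Exactly 3100 was also the top H3K4me3 score of other listed genes, such as LHCB4.1, UBQ10 and YLS8. The highest score of both lists was 3233. Whether 3100 is a set value of the peak caller is not known here, so it may not rank these peaks. With both marks, CAB2 (LHCB1.1, AT1G29920; chromosome 1, 10474784 to 10475959) had an FPKM of 15397, with 93.9% of the locus under H3K4me2 and 100% under H3K4me3. CAB3 (LHCB1.2, AT1G29910) and LHCB2.1 (AT2G05100) followed at 11299 and 7480. Their H3K4me2 scores were 161 and 221 and their H3K4me3 scores 1251 and 2964. In CAB2 the scores were 758 for H3K4me2 and 1629 for H3K4me3. RBCS, LHCB1 and LHCB2 genes have near-identical copies, between which reads may be split, and their values are uncertain.

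Abundant RNA without H3K4me3 was rare, but it occurred. With H3K4me2 only, AT4G29020 (chromosome 4, 14304921 to 14305721) had an FPKM of 1268 and 704 bp of its 801 bp under H3K4me2. GSTU20 (AT1G78370), a glutathione transferase, had an FPKM of 1025 and an H3K4me2 peak of score 51.1, near the lowest score of the list, 50. FSD1 (AT4G25100), an iron superoxide dismutase of the chloroplast, had an FPKM of 696 and 68.3% of its 2712 bp under H3K4me2. With neither mark, the defensin gene PDF1.2 (AT5G44420; chromosome 5, 17907069 to 17907598) had an FPKM of 1590, AT1G23130 had 1550 and AT1G67865 had 1183. Their loci are short, at 530, 853 and 449 bp, and PDF1.2 has close copies that may share its reads.

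The widest peaks without the other mark fell on different kinds of gene. The widest H3K4me2 peak with no H3K4me3 (5335 bp; chromosome 3, 438330 to 443664) lay within BIG (AT3G02260), a very long gene needed for auxin transport, at an FPKM of 1.42. The next (5038 bp; chromosome 2, 12065679 to 12070716) lay in the locus that the chromatin remodeller gene SYD (AT2G28290; FPKM 0.596) shares with AT2G28280. The third (4716 bp; chromosome 3, 19123872 to 19128587) covered parts of AT3G51560 and AT3G51570, both listed at 0. The widest H3K4me3 peak with no H3K4me2 (4628 bp; chromosome 3, 4510781 to 4515408) lay on the beta-galactosidase gene BGAL1 (AT3G13750), at an FPKM of 102.3. The next 2 lay on the transcribed pseudogene AT1G79245 (3520 bp, FPKM 32.7) and across AT1G52220, PSAH2 and ROPGEF11 (3105 bp). PSAH2 (AT1G52230), a subunit of photosystem I, had an FPKM of 3951, and AT1G52220 had 633.

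Genes with both marks and at least 2000 bp also differed in which mark filled the locus. The share of the locus under H3K4me2 minus that under H3K4me3 was lowest in the aquaporin gene PIP2A (AT3G53420), with 31.6% under H3K4me2, 100% under H3K4me3 and an FPKM of 2601. STP1 (AT1G11260), a sugar transporter, had 19.7% and 86.6% at an FPKM of 212, and MYC2 (AT1G32640), a jasmonate transcription factor, had 36.1% and 96.6% at 51.8. In these 3 genes the H3K4me2 scores were between 53.8 and 66.6. The difference was highest in AT1G01880, AT1G03990 and ROPGEF12 (AT1G79860), with 97.6%, 98.7% and 100% under H3K4me2. H3K4me3 covered 39, 75 and 95 bp of them, and their FPKM values were 0.435, 0.619 and 0. For these 3 genes the class with both marks rests on less than 5% of the locus.

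The gene lists were written with earlier results known and describe their members only. Of 29 photosynthesis genes 14 carried H3K4me2 (48.3%) and all 29 carried H3K4me3, against 54.6% and 50.2% of nuclear genes and 65.1% and 59.5% of protein-coding ones. These genes are short (median locus 1349 bp) and abundant. Among all protein-coding genes under 1500 bp with an FPKM of 100 or more, the shares were close, at 44.4% and 90.7%. Of the 26 photosynthesis genes with a locus of their own, 11 carried H3K4me2 and 26 carried H3K4me3. The 15 with H3K4me3 only include the photosystem I genes PSAD1, PSAE1, PSAF, PSAK and PSAL and the antenna genes LHCA1, LHCA2 and LHCA3. In the Rubisco family, RBCS1A and RBCS3B carried H3K4me3 only, while RBCS1B and RBCS2B carried 492 and 474 bp of H3K4me2 as well. The antenna gene LHCB1.3 (AT1G29930) had H3K4me3 over its whole locus, yet it is listed at 0, beside near-identical neighbours. A 0 in this table can be a failed estimate.

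Of 14 reference genes 10 carried H3K4me2 (71.4%) and all 14 carried H3K4me3, against 65.1% and 59.5% of protein-coding genes. Their median FPKM was 272, and protein-coding genes at an FPKM of 100 or more had shares of 58.4% and 94.1%. The translation factor gene EF1A (FPKM 541) had 1498 bp under H3K4me2 and 1160 bp under H3K4me3, and the glycolytic gene GAPC1 (496) had 2087 and 1205 bp, the H3K4me2 peak at a score of 53.7. GAPC2 (1706), its close relative, and the ubiquitin gene UBQ10 (453) had 2070 and 2139 bp under H3K4me3 and no H3K4me2. PP2AA3 (45.6), a phosphatase subunit gene, had 2237 bp under H3K4me2 and 699 bp under H3K4me3.

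Developmental regulators, most of them silenced in leaves by the Polycomb system in textbook accounts, seldom carried H3K4me3. Of 32 genes, 13 carried H3K4me2 (40.6%) and 2 carried H3K4me3 (6.25%), against 54.6% and 50.2% of nuclear genes. Both of those, the floral genes SEP1 and SHP1, share their locus in the table with another gene. Of the 29 with a locus of their own, 10 carried H3K4me2 and 0 carried H3K4me3. Only 5 of the 32 reached an FPKM of 1. Protein-coding genes listed at 0 carried H3K4me2 in 19.4% and H3K4me3 in 1.998% of cases. Those above 0 and under 1 carried them in 57.2% and 22.1%, and the shares of the 32 genes lay between these. With H3K4me2 only, the meristem gene KNAT6 had an FPKM of 3.83 and 537 bp under the mark, and the floral regulator FUL had 2.23 and 496 bp. The flowering repressor FLC had an FPKM of 0.591 and 532 bp of its 5952 bp under H3K4me2. The seed regulators ABI3 and LEC1 were listed at 0 with 1568 and 808 bp under H3K4me2. STM, a meristem homeobox gene (FPKM 5.20), and the florigen gene FT (3.02) carried neither mark.

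Of 12 seed storage and late embryo genes, none of which reached an FPKM of 1, 5 carried H3K4me2 (41.7%) and 1 carried H3K4me3 (8.33%), the oleosin gene OLEO1 in a shared locus. Protein-coding genes listed at 0 carried H3K4me2 in 19.4% and H3K4me3 in 1.998% of cases, and those above 0 and under 1 in 57.2% and 22.1%. EM1 (0.0536), a late embryo gene, had 895 bp under H3K4me2, and the storage protein gene CRA1, listed at 0, had 1209 bp. EM6 (0.168) and SESA5 (0.0590) carried neither. Of the 7 root markers, 3 are also in the list of developmental regulators. They had 1 gene with H3K4me2, PLT2 at 885 bp, and 0 with H3K4me3; WOX5 (0.131) and COBL9 (0.0636) carried neither mark.

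Stress genes were spread over all 4 classes. Among 20 cold and abscisic acid genes 15 carried H3K4me2 (75%) and 14 carried H3K4me3 (70%), against 65.1% and 59.5% of protein-coding genes. Their median FPKM was 12.7 and their median locus 1484 bp. Own-locus protein-coding genes from 5 to under 20 FPKM had shares of 82.9% and 87.0%, and those of them under 1500 bp had 66.8% for each mark. COR15A (FPKM 123), a cold-induced chloroplast protein gene, had 635 bp under H3K4me2 and 1205 bp under H3K4me3, and the phosphatase gene ABI1 (74.2) had 1387 and 2133 bp. KIN2 (577) and RD20 (55.0) carried H3K4me3 only. GOLS2 (12.1), for galactinol synthase, and the regulator CBF1 (2.80) carried H3K4me2 only, and RAB18 (14.3) and KIN1 (7.46) carried neither. KIN1 and KIN2 are close copies, and their values are uncertain. RD29A and RD29B, neighbouring stress genes, differed: RD29A (6.27) had 2570 bp under H3K4me2 and 2233 bp under H3K4me3, and RD29B (0.0213) had 2373 bp under H3K4me2 and no H3K4me3.

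Of 22 salicylic acid and defence genes 17 carried H3K4me2 (77.3%) and 13 carried H3K4me3 (59.1%), against 65.1% and 59.5% of protein-coding genes. Their median FPKM was 11.7 and their median locus 2478.5 bp. Own-locus protein-coding genes of 1500 to under 3000 bp from 5 to under 20 FPKM had shares of 83.6% and 89.7%. The share with H3K4me3 was thus close to that of all protein-coding genes and below that of genes of like FPKM and length. PR5 (FPKM 101) had 1096 bp under H3K4me2 and 770 bp under H3K4me3, a peak of score 52.3, and the salicylic acid receptor gene NPR3 (20.1) had 1542 and 1500 bp. PR2 (21.5), a secreted glucanase gene, and CBP60G (16.2), a regulator of salicylic acid synthesis, carried H3K4me2 only. WRKY70 (43.9) carried H3K4me3 only, over 1497 of its 1554 bp. PR1 (19.4) and PDF1.2 carried neither mark. The call of both marks on FMO1 (0.185) rests on 18 bp of H3K4me2 and 5 bp of H3K4me3.

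**Figure D5:**
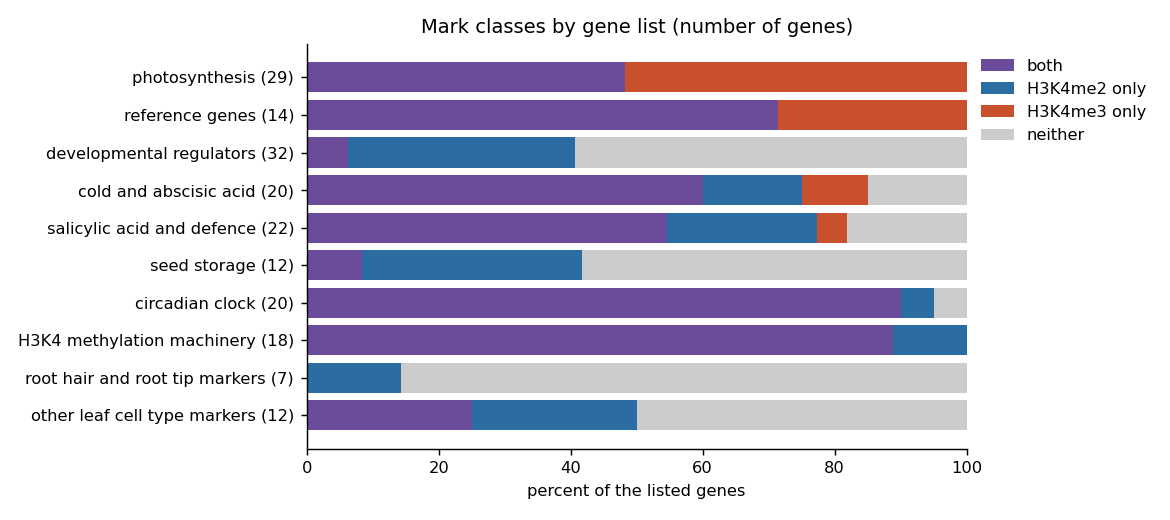
Share of each gene list in the 4 mark classes, with the number of genes in brackets. Photosynthesis and reference genes all carry H3K4me3, and the developmental regulators, seed storage genes and root markers are mostly without it.

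The clock genes carried both marks with few exceptions, and the exceptions were among those with an FPKM under 1. Of 20 genes, 19 carried H3K4me2 and 18 carried both marks (90%), against 42.6% of nuclear and 51.2% of protein-coding genes with both. Their median FPKM was 6.86 and their median locus 3203.5 bp. Own-locus protein-coding genes of 3000 bp or more from 5 to under 20 FPKM carried H3K4me2 in 92.0% and H3K4me3 in 95.4% of cases. The shares of the clock genes, 95% and 90%, were close to these. CHE (FPKM 82.8) had 775 bp under H3K4me2 and 1070 bp under H3K4me3, with an H3K4me2 score of 56.1, and RVE4 (64.7) had 1498 and 1079 bp. PRR5 and FKF1, chosen after their values were seen, had FPKM values of 0.0605 and 0.0217. PRR5 had 2300 bp under H3K4me2 and 2113 bp under H3K4me3, and FKF1 had 2063 and 1348 bp. Both are known for daily rhythms of RNA, and the hour at which leaves were taken is not known here. ELF4 (0.657) carried H3K4me2 only and PRR3 (0.0425) neither. The other 16 genes reached an FPKM of 1, and all of them carried both marks. Of 9121 protein-coding genes with their own locus and an FPKM under 1, 864 (9.47%) carried both marks.

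The genes of H3K4 methylation itself were long (median locus 5958.5 bp), and their FPKM values lay between 0.0186 and 4.17. All 18 carried H3K4me2 and 16 carried H3K4me3 (88.9%). Among the longest group of protein-coding genes, those of 4042 bp and over, 88.7% carried H3K4me2 and 79.1% H3K4me3. Among the methyltransferases, SDG2 (FPKM 0.884; 11182 bp) had 6444 bp under H3K4me2 and 1274 bp under H3K4me3. ATX1 (1.16) had 3768 and 644 bp, ATX2 (3.26) had 3536 and 1152 bp, and ATX3 (4.17) had 3789 and 1051 bp. ATX4 (1.05) had 3340 and 456 bp, ATX5 (3.93) had 1538 and 1148 bp, and ATXR7 (0.720) had 4612 and 196 bp. In each of these 7 genes more bases lay under H3K4me2 than under H3K4me3. Long genes in general were alike: the longest group had medians of 2373 and 872 bp among genes with the mark.

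Among the subunits of the methyltransferase complex, WDR5A (1.51) had 948 bp under H3K4me2 and 929 bp under H3K4me3. ASH2R (2.66) had 1538 and 1254 bp, and RBL (2.39), in a shared locus, had 3784 and 2410 bp. Among the demethylases, JMJ14 (2.98) had 2851 and 794 bp, JMJ16 (1.89) had 3343 and 831 bp, and JMJ18 (2.74), in a shared locus, had 3194 and 1786 bp. LDL1 (2.18) had 2113 and 1228 bp, LDL2 (0.548) had 2028 and 612 bp, and FLD (2.89) had 2593 and 743 bp. JMJ15 (0.0186) and JMJ17 (1.097) carried H3K4me2 only, over 1918 and 4156 bp.

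Markers of vascular, stomatal and trichome cells carried H3K4me2 in 6 (50%) and H3K4me3 in 3 (25%) of 12 cases, against 65.1% and 59.5% of protein-coding genes. The other 6 (50%) carried neither mark, against 37.8% of nuclear and 26.6% of protein-coding genes. Of the 12 markers, 11 reached an FPKM of 1. Own-locus protein-coding genes carried neither mark in 15.1% of cases from 1 to under 5 FPKM and in 6.83% from 5 to under 20. SUC2 (FPKM 303), the sucrose transporter of phloem companion cells, had 1570 bp under H3K4me2 and 1365 bp under H3K4me3. TMM (19.7), a receptor of the stomatal lineage, had 1587 and 779 bp, the H3K4me3 peak at a score of 55.5. GL2 (1.06) had 1464 and 1057 bp, in a locus shared with another gene. The xylem protease gene XCP2 (17.0) and the guard cell gene MYB60 (5.78) carried H3K4me2 only. Another xylem protease gene, XCP1 (11.1), and the phloem regulator APL (10.3) carried neither mark, although both were expressed above an FPKM of 1. The same held for FAMA (4.25), MUTE (2.37) and KAT1 (1.89), while GL1, also with neither mark, had an FPKM of 0.654. The part of cell type shares in these values was not tested.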

How the data were processed

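Wild-type H3K4me2 and H3K4me3 peak lists, 1 ChIP-seq library each, were taken unchanged, and samples were grouped by their titles. The submitters' processing notes name Bowtie 1.0.1, MACS 1.4.2, TopHat2 2.0.10, Cufflinks 2.2.1 and the TAIR10 build, without roles or settings. Each deposited list belongs to 1 sample, so peaks were called per sample. The peak score is the authors' value and was used to rank, filter, bin or summarise peaks within a list. Across the lists, median scores were set side by side, scores of paired peaks were correlated, and a common threshold of 100 was tried. The scores of the 2 marks may not share a scale. The lowest scores were 50 (H3K4me2) and 50.03 (H3K4me3). FPKM is the value for wild type in the authors' deposited table, where 2 libraries are combined. Depth is unknown for both assays.

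Overlaps were computed with Python 3.11.15 and pandas 2.3.3, with a minimum overlap of 1 bp, and were tested on simulated data. Loci are those of the deposited table, whose starts count from 0, and are printed from 1. Genes sharing a locus (4216 of 33278 nuclear genes) cannot be told apart. No test was run, since each mark has 1 library. Alternatives were a stricter overlap, scores of at least 100, equal numbers of peaks, peaks joined across 500 bp, 200 bp of covered locus, other FPKM thresholds and genes set apart from neighbours. Gene names and types come from RefSeq TAIR10.1, matching 32810 of 33557 genes. Bins of FPKM and length use 23004 protein-coding genes with a locus of their own, except for positions along loci and peaks per gene, which take every gene type. Genes named for the highest FPKM of a class or for covered share come from the same 23004. Genes under the widest peaks and other list members were named whatever their type or locus.

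Members, gene lists and tests were chosen with earlier results of these data known. Named genes are the 3 of highest FPKM per class, the 3 widest peaks alone per mark, the 3 highest and 3 lowest differences of covered share, the 2 of highest FPKM per class of each list and all H3K4 methylation genes. Other list members were named after their values were seen. Promoter motifs, planned at first, were not analysed here.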

Additional observations from a re-analysis of the deposited data

How the results depend on the processing

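The order of median FPKM (H3K4me3 only, both marks, H3K4me2 only, neither) held under the 4 alternatives tried on the classes, and genes with both marks had the longest median locus in each. Classes with 1 mark changed places in length with scores of at least 100 and with equal numbers of peaks. An overlap of at least 50% of the peak's own width gave 43.8% of H3K4me2 and 70.0% of H3K4me3 peaks. Peaks joined across 500 bp gave 67.3% and 82.1%, and a width difference (H3K4me2 minus H3K4me3) of 207 bp. Scores of at least 100 gave 66.1% and 70.4%, with a difference of 181 bp. Equal numbers of peaks gave 70.2% and 67.7%, with a difference of 225 bp. Below, values run in the order both, H3K4me2 only, H3K4me3 only, neither. With scores of at least 100 the classes held 35.7%, 10.1%, 12.6% and 41.5% of genes, with median FPKM values of 8.65, 0.373 and 20.9 in the first 3 and median loci of 2890, 1877, 1943 and 1275 bp. With equal numbers of peaks they held 35.7%, 8.35%, 14.4% and 41.5%, with FPKM medians of 8.06, 0.264 and 19.2 and loci of 2882, 1838, 1997 and 1268 bp. With at least 200 bp of the locus covered, the share was 41.8% for both, 6.74% for H3K4me3 only and 39.1% for neither, H3K4me3 only had a median FPKM of 31.5 and 1786 bp, and neither had 1190 bp. With genes of their own locus the shares were 37.1% for both, 12.9% for H3K4me2 only and 42.3% for neither. FPKM medians there were 9.65 for both and 26.4 for H3K4me3 only, and loci 2440, 1737 and 1593 bp in the classes with a mark. At an FPKM of at least 0.1 the expressed shares were 96.4%, 57.8%, 89.5% and 20.0%, and at 5 they were 63.9%, 11.6%, 77.0% and 4.75%. With no other locus within 1000 bp, H3K4me2 went past the inner edge of H3K4me3 in 71.6% and past the outer edge in 10.6% of genes. The other 14 values, 4 shares and 10 medians, stayed within the 95% interval of the value with all peaks and genes, an order-statistic interval for medians (2771 to 2833 bp for the locus length of genes with both marks, for example). Where a value moved, the cause was not tested. No paired analysis was possible because each mark has 1 library and the RNA table holds 1 combined value per genotype. For the same reason no replicate could be left out.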

Other observations

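Of 26687 protein-coding genes by the RefSeq type, 65.1% carried H3K4me2 and 59.5% carried H3K4me3. By comparison, 3911 pseudogenes carried H3K4me2 in 4.58% and H3K4me3 in 2.61% of cases, and 94.96% carried neither. Transcribed pseudogenes carried H3K4me2 in 20.6% and H3K4me3 in 10.4% of 926 cases. Long noncoding RNA genes (lncRNA) carried H3K4me2 in 84.8% and H3K4me3 in 77.7% of 224 cases, 220 of them in a locus shared with another gene. Of 170 genes typed as other noncoding RNA (ncRNA) 27.6% carried H3K4me2 and 42.4% carried H3K4me3. Small RNA genes likewise carried H3K4me3 more often than H3K4me2. Of 71 small nucleolar RNA genes 15.5% carried H3K4me2 and 78.9% carried H3K4me3, and 47 carried H3K4me3 only. Of 623 tRNA genes 12.7% carried H3K4me2 and 26.3% carried H3K4me3, and of 178 microRNA genes 15.2% and 30.9%. The median loci of these 3 types were 87, 73 and 150 bp, shorter than a peak, so a mark of a neighbouring gene and their own cannot be told apart. Of the small nucleolar RNA genes with their own locus, 45 of 59 carried H3K4me3 only.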
